A study of Caenorhabditis elegans with 66 samples.

Results

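Adult Caenorhabditis elegans lacking both snpc-1.2 and snpc-1.3 were compared with wild type at 72 h, when hermaphrodites are gravid, by small RNA sequencing of whole animals. The genotypes are given as snpc-1.2(-); snpc-1.3(-), called the double mutant here, and wild type (N2), with no other allele or agent named in the labels. Each genotype had 3 libraries from the same library set, named set B here. Thus 6 of the 66 libraries of the series carry the comparison, and wild type replicate 3 is a resequenced library. Other libraries of set B enter below as well: prg-1(-), mut-16(-) and hrde-1(-) mutants, and animals taken at 48 h, the L4 stage. Animals that lack either snpc gene alone, with wild type of their own, come from another library set, named set A. The main fit used 30 libraries of set B, and the fit against snpc-1.2(-) used 48 libraries of sets A and B. All 17114 rows of the deposited piRNA table were examined, 15363 with an annotated 21ur name and 1751 with a name that begins with novel_21ur. The labels do not say whether the replicates were separate cultures, so the p-values measure the spread between these libraries, which may be technical. In whole animals, fewer germ cells and fewer piRNAs per germ cell cannot be told apart. The tables hold no protein-coding gene, so neither the loss of the snpc transcripts nor the tissue could be checked in the data.

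piRNAs of C. elegans are 21-base RNAs, most of which begin with uridine, and each is made from its own short transcription unit. Most of these units lie in a pair of clusters on chromosome IV, and the mature RNAs are carried in the germ line by the Argonaute protein PRG-1, which uses them to recognise other transcripts. SNPC-1.2 and SNPC-1.3 are related to SNAPC1, a subunit of the small nuclear RNA activating complex, a transcription factor. In hermaphrodites the germ line makes sperm at the L4 stage and oocytes in the adult, and the title of the series names piRNAs that differ between the sexes.

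The piRNAs on which the results turn are shown first, as DNA letters 5′ to 3′ from the deposited table (WBcel235). The capital marks the first base. The first group holds abundant wild-type piRNAs that were nearly absent from the double mutant. The rows named 21ur-2235 and novel_21ur-1336 start 1 base apart on the same strand and had nearly equal counts in every library, so they are 1 locus listed under separate names.
21ur-5504: Tcttgaacggctaggatcact
21ur-5107: Tccgaattccgaattgaaact
21ur-5554: Ttcaaaaaacatgtagtgatt
21ur-2235: Ttagatagagactgcatgatt
novel_21ur-1336: Tagatagagactgcatgattt

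The next group holds the 2 rows with the most counts in the double mutant, both with G as first base, and 3 rows outside the chromosome IV clusters whose raw counts were higher in the double mutant.
21ur-7611: Gcatttaaaaatttaacgact
21ur-10492: Gagtttttctcgtcgatcgaa
novel_21ur-0464: Tatccatcgtggcctagtggc
novel_21ur-1699: Taactctgctggaacgatgat
novel_21ur-1698: Ttttaccatgcttagaagatc

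The last group holds 2 families of near-identical piRNAs from the right cluster of chromosome IV, which kept different fractions of their wild-type counts. Here capitals mark the positions that differ within a family, 4 in the pair and 6 in the family of 3. 21ur-4230 was added to the account after its values had been seen, because of its likeness to 21ur-2400.
21ur-1793: tacaacgtagagtactgAACT
21ur-4748: tacaacgtagagtactgGCTA
21ur-2400: ttgGtgcctGTtGCtagaatC
21ur-5488: ttgGtgcctATtGCtagaatC
21ur-4230: ttgAtgcctGCtATtagaatT

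The double mutant held 24270, 34162 and 27227 piRNA counts per library, against 700341, 977482 and 753808 in wild type. The means were 28553 ± 5078 and 810544 ± 147024 (SD, n = 3 each), so the double mutant held 3.52% of the wild-type total, and its highest library was 4.88% of the lowest wild-type library. The libraries did not overlap, and an exact permutation test (two-sided) gave p = 0.1, below which 3 against 3 libraries cannot go. These sums are of piRNA reads alone and carry no correction for library depth, which is not known here, so every comparison of raw counts below carries that limit. Fewer rows were detected too. Rows with at least 1 count numbered 2998, 3365 and 3284 in the double mutant, against 9758, 10287 and 9725 in wild type. Wild-type libraries thinned to the double-mutant totals would be expected to show between 3547 and 4240 rows, and each double-mutant number lay below the expectations at its own total. Of the 1260 rows with a wild-type mean of at least 100 counts, 226 had no count in any double-mutant library, which allows up to 3 of the 85659 counts of those libraries for each.

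Raw counts and shares are given side by side. A raw count says how many reads a piRNA had. A share, and each log2 fold change from edgeR below, is relative to the piRNA total of the library, so a piRNA that kept more than 3.52% of its wild-type count has a positive log2 fold change although its count was lower. On that scale edgeR's quasi-likelihood test called 2930 of 7444 tested rows at an adjusted p below 0.05, or 39.4%, with the share of 1497 higher (20.1%) and of 1433 lower (19.3%). The median log2 fold change over the tested rows was -1.66. With all libraries given equal size, which leaves raw counts as they are, 57 rows were higher (0.766%) and 5927 lower (79.6%). With TMM factors the split was 816 higher and 2900 lower, and the median moved to -3.09. Without any test, raw counts were lower in all 3 double-mutant libraries than in any wild-type library for 7198 of the 11886 rows with a count (60.6%), and higher for 66 (0.555%).

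**Figure D1:**
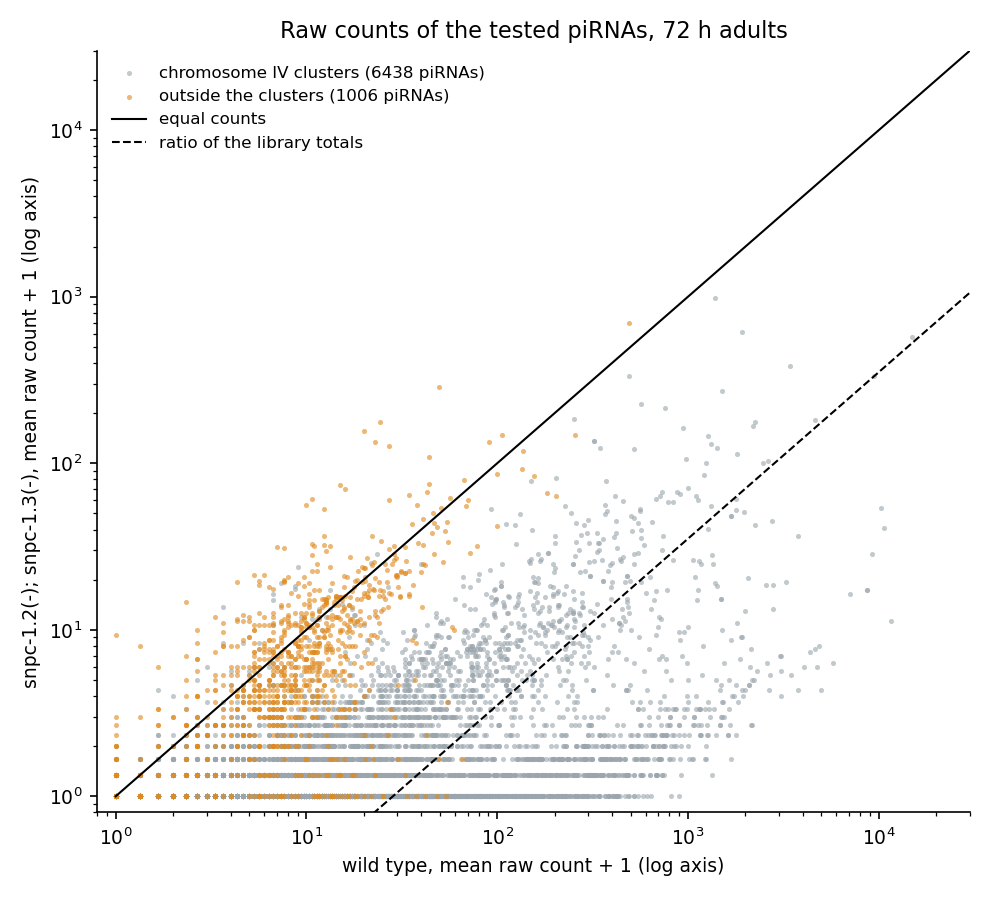
Mean raw count plus 1 of each tested piRNA in the double mutant (y) against wild type (x), on log axes, n = 3 libraries each. Piled-up points at the bottom are rows with few or no counts in the double mutant. Most of the 1006 rows outside the chromosome IV clusters lie near the line of equal counts, and most of the 6438 cluster rows lie far below it.

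The loss was concentrated in the chromosome IV clusters, taken here as 4 to 8 Mb and 13 Mb to the end of the chromosome. Cluster rows had 14981, 23208 and 17435 counts in the double mutant, against 687324, 963518 and 741626 in wild type, or 2.32% of the wild-type mean. Rows outside the clusters had 9289, 10954 and 9792 counts in the double mutant, against 13017, 13963 and 12182 in wild type, or 76.7%. Both sets of libraries were separate without overlap, and the fraction kept was far lower in the clusters than outside them. As a share of the library, loci outside the clusters made up 35.4% ± 3.1 in the double mutant and 1.63% ± 0.22 in wild type (SD, n = 3 each, exact permutation p 0.1). Of 1006 tested rows outside the clusters, edgeR called 785 higher in share (78.0%) and 3 lower (0.298%). Their log2 fold changes had a median of 4.11. In the clusters 712 of 6438 were called higher (11.1%) and 1430 lower (22.2%), and the median was -2.92. Over all tested rows 20.1% were called higher and 19.3% lower, so the cluster share called lower was near that of all rows. With equal library sizes the rows outside the clusters split into 52 higher (5.17%) and 227 lower (22.6%). The cluster rows split into 5 (0.0777%) and 5700 (88.5%), beside 0.766% and 79.6% of all tested rows.

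**Figure D2:**
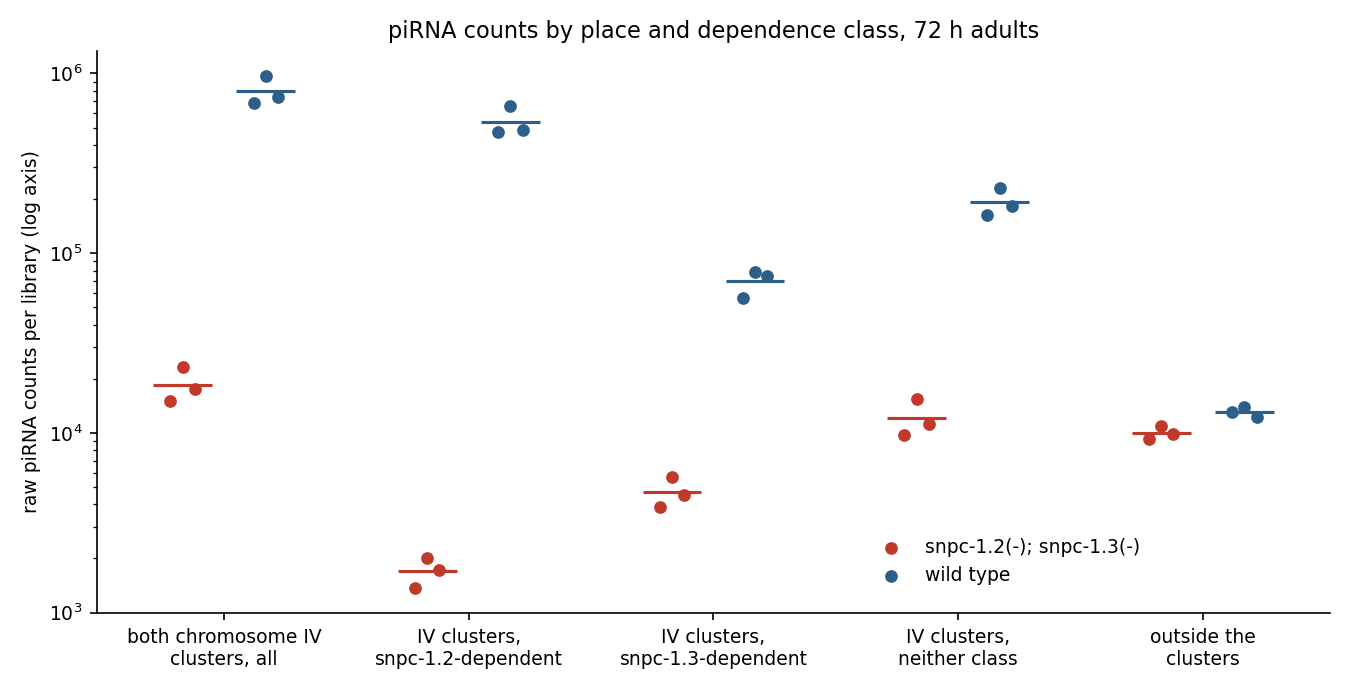
Raw piRNA counts per library at 72 h (log axis) for rows in the chromosome IV clusters, for 3 classes within them, and for rows outside them. Each point is a library and each bar a mean, n = 3 per genotype; the genotypes are farthest apart for snpc-1.2-dependent cluster rows (0.318% of wild type) and closest outside the clusters (76.7%).

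Along chromosome IV the fraction kept changed at the cluster edges. The interval from 3 to 4 Mb had 77, 134 and 88 counts in the double mutant, against 109, 119 and 91 in wild type, and these ranges overlapped (93.7% of the wild-type mean). From 5 to 6 Mb the double mutant had 708, 1184 and 813 counts, against 27323, 52063 and 28641 in wild type (2.50%). From 7 to 8 Mb, where the left cluster thins out, it kept 16.9%, and from 8 to 9 Mb 81.3%. Between the clusters the fraction was lower again from 9 to 10 Mb (36.0%) and from 10 to 11 Mb (22.9%). Within the right cluster the fraction was not uniform. It was 1.34% from 13 to 14 Mb and 3.25% from 14 to 15 Mb, the interval that holds both families of near-identical piRNAs shown above, and between 1.88% and 2.11% from there to the end of the chromosome. Outside chromosome IV, the fraction of wild-type counts kept was 70.7% on I, 67.2% on II, 92.0% on III, 78.3% on V and 98.8% on X. On III and X the libraries of the genotypes overlapped.

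Dependence on each gene alone was taken from set A, which shares no library with this comparison. A row was snpc-1.2-dependent if its share of the piRNA total was at least 2-fold lower in snpc-1.2(-) than in wild type at 72 h (2365 rows, 31.1% of those tested). It was snpc-1.3-dependent if its share was at least 2-fold lower in snpc-1.3(-) than in wild type at 48 h, the L4 stage (3313 rows, 43.5%), both at an edgeR adjusted p below 0.05. The piRNA total of snpc-1.2(-) at 72 h was itself 25.7% of that of set A wild type, so a row whose count was lower by about as much as the total is not snpc-1.2-dependent by this rule. The snpc-1.2-dependent piRNAs made up most of the wild-type adult pool and were the most completely lost. In snpc-1.2(-) of set A, which defined the class, they kept 1.95% of wild-type counts, at a share of 5.04% ± 0.12 (SD, n = 3). Most of their loss was thus present without snpc-1.2 alone. They had 1477, 2091 and 1814 counts in the double mutant, against 469862, 656660 and 485269 in wild type, or 0.334%. Their share was 6.29% ± 0.32 in the double mutant and 66.2% ± 1.6 in wild type (SD, n = 3 each, exact permutation p 0.1). Of 2208 tested, edgeR called 1294 lower in share (58.6%, beside 19.3% of all tested rows) and 8 higher. The snpc-1.3-dependent piRNAs had 4010, 5897 and 4659 counts in the double mutant, against 56258, 78506 and 74746 in wild type, or 6.95%. In snpc-1.3(-) of set A at 72 h, where the piRNA total was 105% of wild type, they kept 59.8%. Their share was 17.0% ± 0.4 in the double mutant and 8.66% ± 1.09 in wild type. Of 3048 tested, 414 were called higher in share (13.6%, below the 20.1% of all tested rows) and 22 lower. With equal library sizes 2 were higher and 2448 lower (80.3%, near the 79.6% of all tested rows). Within the clusters, rows in neither class kept 6.34% of their counts, with 9722, 15501 and 11210 in the double mutant against 162266, 229657 and 182640 in wild type, and made up 42.2% ± 2.8 of the double-mutant pool and 23.6% ± 0.5 of the wild-type pool. No library of either genotype overlapped the other in any of these 3 classes, in counts or in share.

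**Figure D3:**
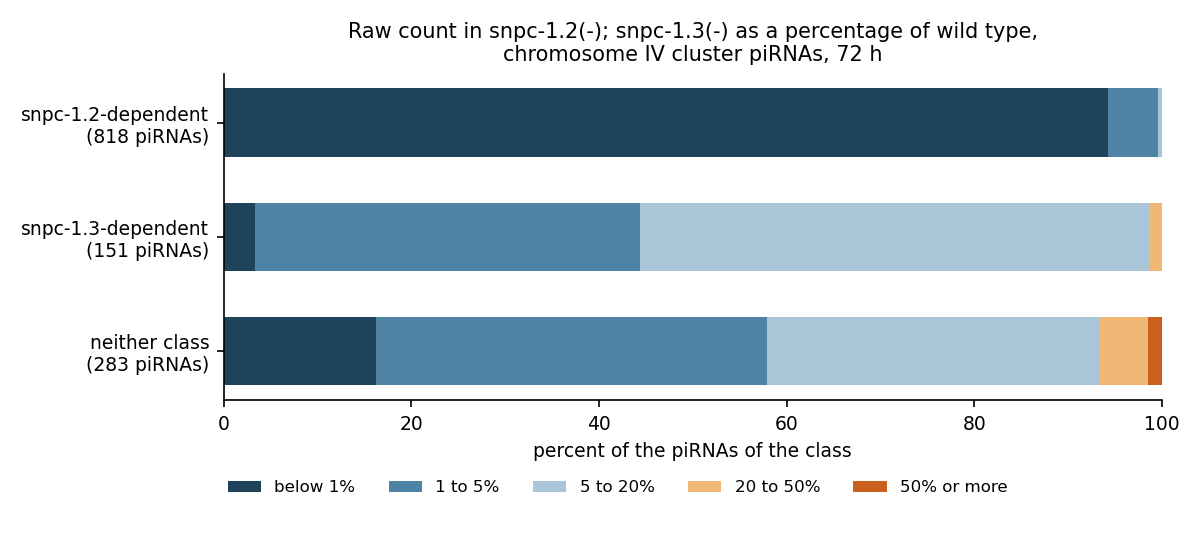
Chromosome IV cluster piRNAs with a wild-type mean of at least 100 counts, split by the double-mutant mean count as a percentage of the wild-type mean; bars add to 100% of each class. Of the 818 snpc-1.2-dependent rows at that level 771 are below 1%, and of the 151 snpc-1.3-dependent rows at that level 5 are.

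Single piRNAs were described where wild type had a mean of at least 100 counts, a level taken from the same wild-type libraries that the fraction is relative to. In the clusters 818 of 2322 snpc-1.2-dependent rows, 151 of 3266 snpc-1.3-dependent rows and 283 of 9622 rows in neither class reached it, so these values describe the abundant members alone. The median fraction kept was 0.302% over all 1260 such rows. It was 0.157% for 818 snpc-1.2-dependent cluster rows (quartiles 0 and 0.301%), 5.50% for 151 snpc-1.3-dependent ones (3.39 and 8.54%) and 3.93% for 283 in neither class (1.70 and 7.83%). Of the 1260 rows, 19 kept 20 to 50% and 10 kept 50% or more. These 10 comprise 4 of the 1132 rows of the right cluster at that level and 3 of 4 on chromosome II. The others are 1 of 1 on V, 1 of 2 on X and 1 of 1 on chromosome IV outside the clusters. Rows were also sorted by their level in set A wild type into 10 classes of equal size. The class with the highest level kept 2.22% of its counts and held 52.2% ± 2.4 of the double-mutant pool and 83.1% ± 0.4 of the wild-type pool (SD, n = 3 each). Class 6, at a middle level, kept 20.9%, and the 3 classes with the lowest levels kept 9.97%, 7.48% and 6.47%.

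Stage classes were also taken from set A wild type. The 72 h-enriched piRNAs (2218 rows, 29.1% of those tested) had 6188, 8384 and 6839 counts in the double mutant, against 409847, 570839 and 424187 in wild type (1.52%). The 48 h-enriched piRNAs (3444 rows, 45.3%) had 4378, 6176 and 4989 counts in the double mutant, against 60301, 83603 and 78846 in wild type (6.98%). At 72 h the share of the 48 h-enriched class was 18.1% ± 0.2 in the double mutant and 9.21% ± 1.08 in wild type, and that of the 72 h-enriched class was 25.1% ± 0.5 and 57.7% ± 1.3 (SD, n = 3 each). In total 32 shares were compared over position, overlap, first base, name, level, stage and dependence. Each gave an exact permutation p of 0.1, and 0.1 after Benjamini-Hochberg adjustment, so no share could pass 0.05 in this design.

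The shares of the dependence classes in the double mutant were close at both ages, whereas those in wild type were not. The snpc-1.2-dependent class was chosen at 72 h and the snpc-1.3-dependent class at 48 h, which favours a change between ages in wild type. For the stage classes the double mutant did differ between ages. The share of the 48 h-enriched class in it was 23.8% ± 0.3 at 48 h and 18.1% ± 0.2 at 72 h, and that of the 72 h-enriched class 16.8% ± 0.5 and 25.1% ± 0.5. In wild type at 48 h these classes made up 53.8% ± 3.8 and 18.1% ± 3.4. Among the dependence classes at 48 h, the share of snpc-1.3-dependent piRNAs was 16.5% ± 0.5 in the double mutant and 52.2% ± 3.6 in wild type, the opposite direction from 72 h. For snpc-1.2-dependent piRNAs it was 6.61% ± 0.23 and 23.4% ± 3.9 at 48 h (SD, n = 3 each). As raw counts, snpc-1.3-dependent rows kept 0.904% at 48 h and 6.95% at 72 h, and snpc-1.2-dependent rows kept 0.787% at 48 h and 0.334% at 72 h. Row by row, the difference from wild type itself differed between ages for 774 of 7444 tested rows in the edgeR interaction test (10.4%), with 656 more positive at 72 h (8.81%) and 118 more negative (1.59%). This split depended on the scaling: it was 199 and 583 with TMM factors and 690 and 45 with equal library sizes. Without double mutant replicate 2 the test called 498 rows.

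**Figure D4:**
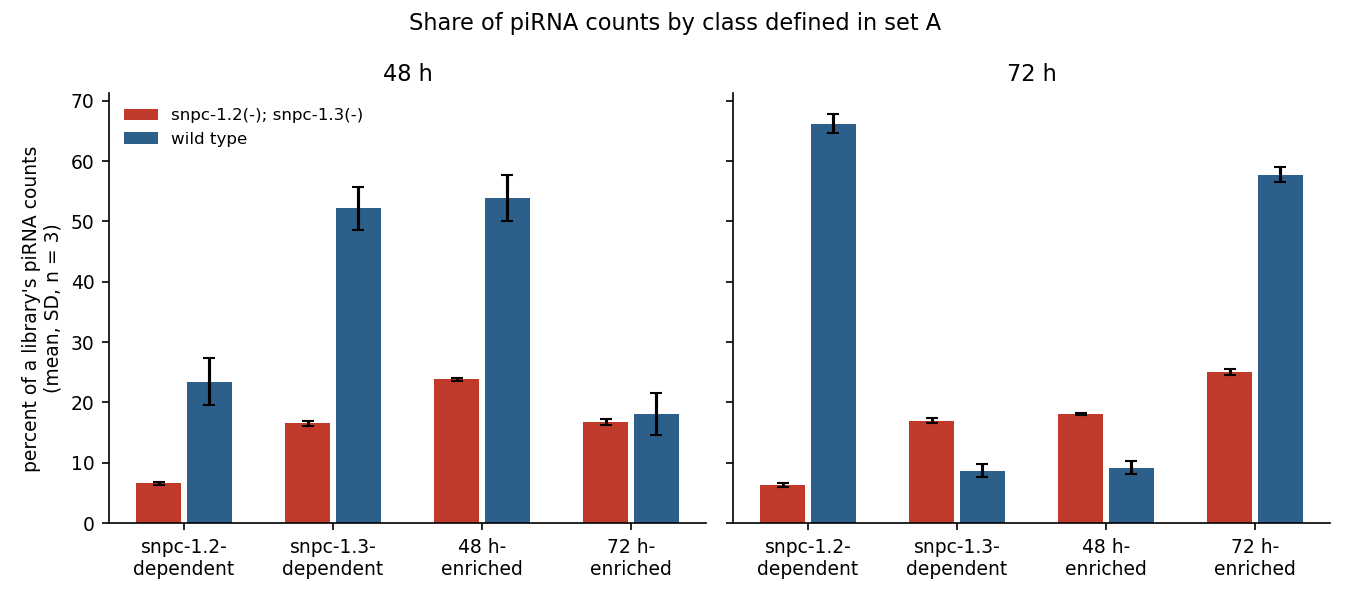
Share of a library's piRNA counts in classes defined in set A, at 48 h (left) and 72 h (right); bars are means and error bars SD, n = 3 libraries. For snpc-1.3-dependent piRNAs the double mutant is at 16.5% at 48 h and 17.0% at 72 h, and wild type at 52.2% and 8.66%.

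Among single piRNAs, those nearly absent from the double mutant were led by 21ur-5504 (IV:16041087-16041107, plus strand, outside annotated genes). It had 13, 4 and 14 counts in the double mutant, against 8529, 14881 and 11199 in wild type. That is 0.0896% of the wild-type mean, with a log2 fold change in share of -5.25 (SE 0.30, edgeR adjusted p 3.4e-30). 21ur-3363 (IV:14462876-14462896, minus strand, outside the exons of nspg-9) had 4, 6 and 6 counts in the double mutant, against 4451, 7550 and 5267 in wild type (log2 fold change -5.23, SE 0.30, edgeR adjusted p 3.5e-32). The locus of 21ur-2235 and novel_21ur-1336 (IV:16629788-16629808 for the first, plus strand) had 15, 14 and 20 counts in the double mutant under either name, against 6676, 9820 and 9554 in wild type for 21ur-2235 (0.188%). 21ur-5107 (IV:15257820-15257840, minus strand) kept 0.376%, 21ur-3421 (IV:13700230-13700250, minus strand) 0.515% and 21ur-4375 (IV:14126024-14126044, minus strand) 0.217%. All of these are snpc-1.2-dependent in set A.

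21ur-5554 (IV:13746888-13746908, minus strand, outside annotated genes) is in neither class as defined on shares, although its counts were lower in snpc-1.2(-) too, and it kept a similarly low fraction in the double mutant. It had 18, 32 and 32 counts in the double mutant, against 6986, 10125 and 10599 in wild type, or 0.296% (log2 fold change -3.59, SE 0.25, edgeR adjusted p 3.8e-26). In snpc-1.2(-) of set A it had 1468, 947 and 2132 counts, against 5559, 8716 and 7830 in wild type of that set. The difference from wild type was more negative in the double mutant than in snpc-1.2(-) by 3.25 on the log2 scale (edgeR adjusted p 8.7e-17).

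Other abundant piRNAs of the right cluster kept about the same fraction as the whole library. 21ur-1793 (IV:14495458-14495478, plus strand, outside the exons of tag-273) was the row with the most counts in wild type. It had 422, 740 and 559 counts in the double mutant, against 9963, 17682 and 17423 in wild type (3.82%, log2 fold change in share 0.11, SE 0.18, edgeR adjusted p 0.67). With TMM factors its log2 fold change was -1.51 and was called. 21ur-74 (IV:15269716-15269736, minus strand) had 307, 428 and 261 counts in the double mutant, against 7993, 9885 and 10423 in wild type (3.52%). It likewise changed by -0.02 in the main scaling and by -1.64, called, with TMM factors.

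The near-identical piRNAs did not keep the same fraction. 21ur-4748 (IV:14494642-14494662, plus strand, also outside the exons of tag-273) had 217, 502 and 278 counts in the double mutant, against 364, 686 and 416 in wild type (68.0%), and these ranges overlapped. Its neighbour 21ur-1793 kept 3.82%. In the family of 3, 21ur-2400 (IV:14753357-14753377, plus strand) kept 32.0%, with 467, 807 and 565 counts in the double mutant against 1710, 2332 and 1710 in wild type. 21ur-5488 (IV:14753042-14753062, plus strand) kept 17.9% and 21ur-4230 (IV:14750887-14750907, minus strand) kept 7.90%. Their log2 fold changes in share were 3.17, 2.31 and 1.14 (SE 0.20, 0.21 and 0.20), all called by edgeR. The sign for 21ur-4230 turned with TMM factors (-0.48, not called), and with equal library sizes all 3 were called lower. Reads of such similar sequences can be split by the authors' counting only where the differing bases were read correctly.

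The row with the most counts in the double mutant was 21ur-7611 (IV:16837991-16838011, plus strand, outside annotated genes). It had 811, 1286 and 841 counts in the double mutant, against 1406, 1530 and 1195 in wild type, and these ranges overlapped (71.1%). Its share was 33983 ± 3413 CPM (counts scaled to the same piRNA total) in the double mutant and 1719 ± 250 in wild type (SD, n = 3 each; log2 fold change 4.31, SE 0.54, edgeR adjusted p 7.4e-07). With equal library sizes it changed by -0.49 and was not called. At 48 h it had 516, 261 and 332 counts in the double mutant, against 256, 254 and 238 in wild type. 21ur-5366 (IV:15218559-15218579, minus strand) had 294, 441 and 413 counts in the double mutant against 2914, 3535 and 3844 in wild type (11.2%), and 21ur-2752 (IV:15818283-15818303, plus strand) kept 39.8%. The share of 21ur-5366 was called higher in the main scaling (log2 fold change 1.64, edgeR adjusted p 1.2e-12) but not with TMM factors (0.03). Of the most abundant snpc-1.3-dependent rows in wild-type adults, 21ur-1059 (IV:15207886-15207906, minus strand, opposite an exon of a pseudogene) kept 7.00% and 21ur-3451 (IV:14528805-14528825, plus strand) 1.93%.

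**Figure D5:**
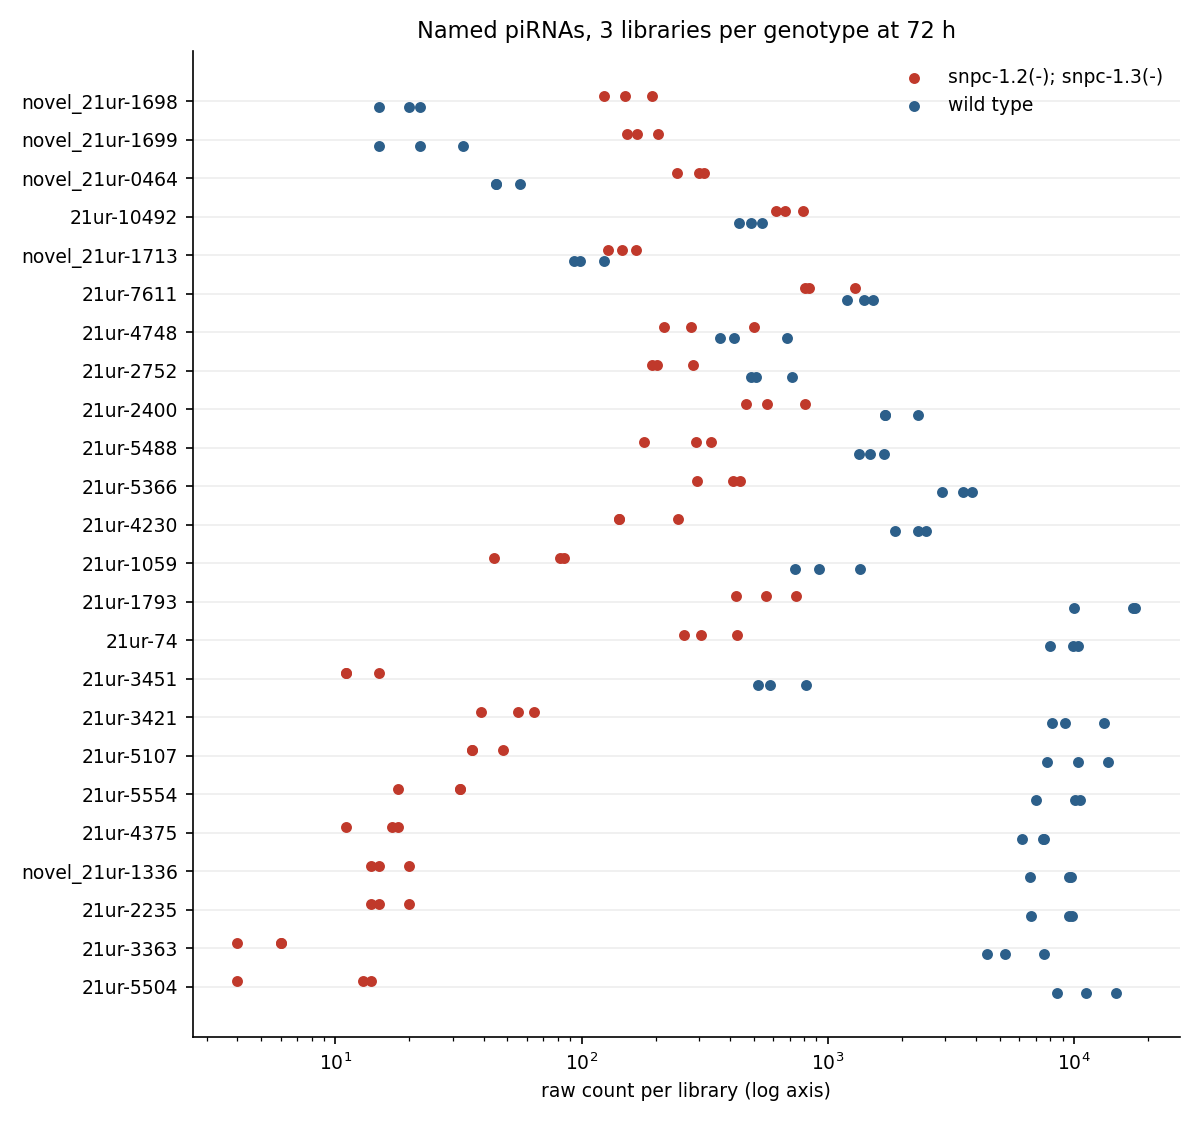
Raw count in each of the 3 double-mutant and 3 wild-type libraries at 72 h (log axis) for the 24 named piRNAs, ordered by the percentage of the wild-type count kept. The order runs from novel_21ur-1698, higher in the double mutant in every library, to 21ur-5504, which kept 0.0896%.

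Outside the clusters a small number of rows had more reads in the double mutant than in wild type. Of the 66 rows with raw counts above every wild-type library in all 3 double-mutant libraries (0.555% of those with a count), 60 lie outside the clusters, beside 1231 of the 11886 rows with a count. Of those 60, 58 carry novel_21ur names (96.7%, beside 81.2% of all rows with a count outside the clusters) and 22 lie opposite an exon (36.7%, beside 52.8%). The one with the most counts was 21ur-10492 (II:13247294-13247314, minus strand, opposite an exon of F15D4.5). It had 670, 796 and 616 counts in the double mutant, against 488, 541 and 436 in wild type (142%), and with equal library sizes its log2 change of 0.51 was not called (edgeR adjusted p 0.20). novel_21ur-0464 (III:2031377-2031397, minus strand, outside annotated genes) had 245, 299 and 314 counts in the double mutant, against 56, 45 and 45 in wild type (588%). Its log2 change in raw counts, with equal library sizes, was 2.55 (edgeR adjusted p 1.5e-09). A pair of rows on X, opposite an exon of the non-coding gene Y81B9A.5, was higher still in proportion. novel_21ur-1699 (X:9192186-9192206, minus strand) had 153, 168 and 204 counts in the double mutant against 22, 33 and 15 in wild type (750%). novel_21ur-1698 (X:9192124-9192144, minus strand) had 123, 150 and 193 against 22, 20 and 15 (818%). novel_21ur-1713 (X:13397150-13397170, minus strand, opposite an exon of F02C12.3) kept 140%, which was not called with equal library sizes (adjusted p 0.25).

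The makeup of the remaining pool differed in other features as well. Rows opposite an exon had 5584, 6505 and 6039 counts in the double mutant, against 17512, 21484 and 17014 in wild type (32.4%), and their share was 21.4% ± 2.1 in the double mutant and 2.32% ± 0.16 in wild type. This overlap went with position: of the 1159 rows opposite an exon 752 lie outside the clusters, where they kept 70.5%, beside 76.7% for all rows there. Rows with novel_21ur names kept 17.2% and had a share of 36.2% ± 2.9 in the double mutant and 7.37% ± 0.36 in wild type (SD, n = 3 each). The name went with position too: novel_21ur rows in the clusters kept 2.98% and annotated ones there 2.28%, while outside the clusters novel_21ur rows kept 75.9% and annotated rows 83.0%. Rows with G as first base kept 30.6% over 81 rows, and 8.39% without 21ur-7611 and 21ur-10492, so that fraction rests mainly on those rows. T remained the first base of 91.9% ± 0.2 of counts in the double mutant, against 97.9% ± 0.1 in wild type.

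The double mutant was set beside snpc-1.2(-) at the same age, each relative to wild type of its own set. Cluster piRNAs that depend on snpc-1.3 kept 6.75% of wild-type counts in the double mutant, with 3882, 5706 and 4492 counts. In snpc-1.2(-) of set A they had 88311, 75856 and 168326 counts, against 48146, 67045 and 61598 in wild type of that set (188%). Tested as a difference of both differences from wild type, each within its own set, edgeR called 1773 of 8257 rows (21.5%), 654 more positive (7.92%) and 1119 more negative (13.6%) in the double mutant. The split was 437 and 1585 with TMM factors, 26 and 3935 with equal library sizes, and 959 and 573 with TMMwsp factors, a variant of TMM that also uses rows with zeros.

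The double mutant was also set beside prg-1(-), which lacks the piRNA-binding Argonaute. Cluster rows kept 2.32% of wild-type counts in the double mutant and 0.300% in prg-1(-), which had 1507, 2536 and 3128 counts there. Rows outside the clusters kept 76.7% in the double mutant and 49.4% in prg-1(-), which had 4559, 7036 and 7736 counts there. In snpc-1.2(-) of set A, cluster rows kept 23.6% and rows outside them were at 148%, the latter with overlapping libraries. A lower fraction kept in the clusters than outside them was therefore not particular to the double mutant. The prg-1(-) libraries are of set B and share the wild-type libraries. edgeR called 696 of 7444 rows between the double mutant and prg-1(-) (9.35%), 420 with a higher share (5.64%) and 276 with a lower share (3.71%) in the double mutant, with 677 and 135 under TMM factors, 164 and 519 under TMMwsp factors and 1190 and 26 under equal library sizes. Without prg-1(-) replicate 2 it called 452 rows, and without replicate 3 it called 421. The next 3 piRNAs, which kept or gained counts in the double mutant, had few or none in prg-1(-). 21ur-7611 had 811, 1286 and 841 counts in the double mutant and 1 count in each prg-1(-) library. 21ur-2400 had 467, 807 and 565 in the double mutant and 3, 5 and 8 in prg-1(-). novel_21ur-0464 had 245, 299 and 314 in the double mutant and 1, 0 and 0 in prg-1(-). By contrast 21ur-10492 had 670, 796 and 616 counts in the double mutant and 1034, 1709 and 2011 in prg-1(-), and novel_21ur-1699 had 153, 168 and 204 in the double mutant and 28, 89 and 52 in prg-1(-). In mut-16(-), a mutant of secondary small RNA amplification, the piRNA total was 236% of wild type. There 21ur-10492 had 66, 120 and 229 counts and novel_21ur-1699 had 1, 0 and 7. Rows opposite an exon outside the clusters were at 34.0% of wild type in mut-16(-), and cluster rows at 238%. 21ur-7611, outside annotated genes, had 120, 226 and 481 counts in mut-16(-), against 1406, 1530 and 1195 in wild type. In hrde-1(-), a further mutant of set B, the piRNA total was 104% of wild type. There 21ur-10492 had 10, 15 and 12 counts, novel_21ur-1699 had 0, 1 and 0, and 21ur-7611 had 207, 308 and 336. What lay behind these differences was not tested. In mut-16(-) 21ur-2400 had 6282, 5878 and 3247 counts and novel_21ur-0464 had 284, 271 and 188, both above wild type. Of the 66 rows with more reads in the double mutant, 26 had no count in any prg-1(-) library and 35 had a count in all 3. The prg-1(-) libraries held only 6066, 9572 and 10864 piRNA counts. The matching shares over all rows are not given here, so these numbers do not show a trait of the 66 rows.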

How the data were processed

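The authors' deposited count table gives raw counts per piRNA, per the file headers. Per the submitters' processing notes Trimmomatic 0.39, Bowtie 1.1.1, HTSeq, edgeR and the build WBcel235 were used. How reads that fit several rows were counted is not given in the sources used here. RNA 5′ polyphosphatase was applied to the RNA first, per the labels' protocols, so RNAs with a 5′ triphosphate can enter the libraries as well. A second deposited table gave sequences, coordinates and batch-corrected log2 CPM, per the file headers. 12 columns of the count table match no sample and were not used, and 12 samples of the series have no column used here.

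Of the rows, 4248 start within 2 bases of another row of the same strand, and 68 share their sequence with another row. Besides the locus of 21ur-2235 and novel_21ur-1336, the 4248 include the named rows 21ur-5504, 21ur-5107, 21ur-3363, 21ur-7611, 21ur-5488, 21ur-2752, 21ur-74 and 21ur-4230. Overlap with genes was looked up in the WBcel235 annotation.

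The test was edgeR 4.0.16 (R 4.3.3), robust quasi-likelihood F test on the 30 libraries of set B with a mean per genotype and age, filterByExpr (minimum count 10, minimum total 15) and Benjamini-Hochberg adjustment over all rows tested. The library size was the piRNA total with no further factor, so that a fold change is a change of share. The comparison with snpc-1.2(-) used 48 libraries of sets A and B. SEs were taken as the unshrunk log2 fold change over the root of the F statistic. Shares and totals were compared by exact permutation (scipy 1.17.1). The fit was also run on simulated data, in which the double mutant had the wild-type makeup apart from a limited set of changed rows. That setting differs from these libraries, so it does not show how the fit behaves when most of the pool is lost. Alternatives were other scalings and filters, a replicate block, DESeq2 1.42.0, limma 3.58.1 on the deposited log2 CPM, and leaving out each library.

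Replicate numbers did not pair the libraries, since deviations of same-numbered libraries correlated at 0.021, 0.043 and 0.016. Named piRNAs were, at 72 h, the 8 most abundant called lower and the 8 called higher (at least 2-fold, no overlap), the 5 with the most counts in each genotype, the 5 with the most counts among rows whose raw counts exceeded wild type in every library, and the 2 most abundant of each dependence class, 23 in all, plus 1 chosen after values were seen. The members and lists were chosen with earlier results of these data known.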

Additional observations from a re-analysis of the deposited data

Results flagged for a closer look

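The difference of the double mutant from wild type was itself different between 72 h and 48 h for 774 of 7444 tested piRNAs in the edgeR interaction test. Among the named piRNAs it was more negative at 72 h for 21ur-5504 (log2 difference -3.07), 21ur-3363 (-3.80), 21ur-2235 (-1.73), novel_21ur-1336 (-1.73), 21ur-3421 (-1.57), 21ur-4375 (-1.57), 21ur-5554 (-1.02) and 21ur-5107 (-0.89, edgeR adjusted p 0.049). It was more positive at 72 h for 21ur-4748 (1.1), 21ur-1059 (1.53) and 21ur-3451 (1.54). The rows listed as more negative were all named for being abundant in wild type and called lower at 72 h in these same libraries. That choice favours a more negative difference at 72 h, and 21ur-4748 was likewise named for being called higher at 72 h. For 21ur-5504 the wild-type mean was 1901 counts at 48 h and 11536 at 72 h, and for 21ur-5554 it was 9091 and 9237.

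Shares of 4 classes lay above wild type in every double-mutant library at 72 h and below it in every one at 48 h, and this difference between ages was not tested. The 48 h-enriched class was defined by a higher wild-type share at 48 h than at 72 h in set A. The snpc-1.3-dependent class was defined on 48 h animals of that set. Those choices favour a fall of the wild-type share between the ages. At 72 h the share exceeded wild type by 8.94 percentage points for 48 h-enriched piRNAs, by 8.31 for snpc-1.3-dependent piRNAs, and by 0.171 and 6.28 for classes 3 and 9 of 10 by wild-type level.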

How the results depend on the processing

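Main counts of edgeR calls were 2930 against wild type at 72 h, 774 for the age difference, 1773 against snpc-1.2(-) and 696 against prg-1(-). With equal library sizes they were 5984 against wild type, 3961 against snpc-1.2(-) and 1216 against prg-1(-). With limma on the deposited log2 CPM they were 11217 (9731 higher and 1486 lower), 5707, 8261 and 10038. In that table a row with no count had a median log2 CPM of 5.04, 4.71 and 4.94 in the double-mutant libraries and 0.97, 0.52 and 0.88 in wild type, so rows with no count differ there by construction. With the compared groups only, which left 352 rows to test, prg-1(-) gave 319. Leaving out 1 library gave between 2345 and 2994, 498 and 776, 1280 and 1813, and 421 and 626; the age difference was lowest without double mutant replicate 2, and prg-1(-) gave 452 and 421 without its replicates 2 and 3. The replicate block gave 2955, 789, 1812 and 714, so it changed no count by over 1.5 times. DESeq2 called 3469 against wild type. The median log2 fold change over all rows was -3.09 with TMM factors, against -1.66.

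Signs of log2 fold changes turned for 21ur-1793 (-1.51 with TMM factors, -1.33 with TMMwsp, -1.40 with DESeq2 size factors in edgeR and -1.40 with DESeq2), 21ur-1059 (-0.62, -0.42, -0.50 and -0.50) and 21ur-4230 (-0.48, -0.30, -0.36 and -0.36). With equal library sizes these were -4.71, -3.83 and -3.66, and it also turned 21ur-7611 (-0.49), 21ur-2400 (-1.64), 21ur-5366 (-3.16), 21ur-4748 (-0.56), 21ur-5488 (-2.49) and 21ur-2752 (-1.33). 21ur-3451 was not called without double mutant replicate 2 (-0.64, edgeR adjusted p 0.18).

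The piRNA total of the double mutant was 2.44% of wild type with annotated names only and 3.51% with loci within 2 bases counted once, an alternative chosen after seeing the data; leaving out 1 library gave 3.18 to 3.93%. Of the class shares, the difference reversed with annotated names only for IV 4 to 8 Mb (0.850 points), genes outside their exons (0.540) and first base A (0.0196), and kept its sign in the other 330 values. Alternatives that needed library read totals, set C mutants or a genome for the promoter motif were not run. Depth limits single rows: the double mutant had 511 to 677 rows with at least 10 counts per library.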
